A study of Mus musculus with 9 samples.

Results

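The genes described here encode 10 proteins of the non-collagenous extracellular matrix and the enzymes that cross-link it. They are fibronectin (Fn1), osteonectin (Sparc), tenascin-C (Tnc), periostin (Postn), thrombospondins 1 and 2 (Thbs1 and Thbs2), elastin (Eln), fibrillin-1 (Fbn1), lysyl oxidase (Lox) and lysyl oxidase-like 2 (Loxl2). They were chosen by name, with earlier results of these data known, and make up 10 of the 19698 named genes measured in mouse lung. Each gene was represented by its brightest probe, matched to its symbol through its RefSeq accession. The arrays held 15 probes for these genes, and all 15 exceeded the local background filter on all 9 arrays.

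The study irradiated the left lung of anesthetized male C57BL/6 mice at 10 weeks of age with a single exposure and measured lung RNA on one-color microarrays. The files hold 4 arrays labeled control, taken from lungs of mice that were not irradiated, and 5 labeled irradiated. Which dose, part of the lung and time each irradiated array stands for is not in its label, and the study used more than one of each, so the 5 arrays may differ in all of these. RNA of replicate experiments was pooled before labeling, so the p-values below measure only the spread between arrays of pooled RNA. The labels give the same strain, sex and age for every array and name no genetic modification, and they do not say whether that age is the one at sampling.

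Fibronectin is a dimeric glycoprotein that cells assemble into fibrils through integrins, and these fibrils form an early scaffold in wounded tissue on which collagen is deposited. Elastin is laid down on fibrillin microfibrils and gives the alveolar wall its recoil, and lysyl oxidases cross-link both elastin and collagen by oxidizing lysine residues. Matricellular proteins such as SPARC, tenascin-C, periostin and the thrombospondins are secreted into the matrix and regulate cell adhesion and matrix assembly rather than serving mainly as structural fibers. Many of these genes are known for high expression in fibroblasts and myofibroblasts, and Thbs1 protein is also abundant in platelets.

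Start-site windows were available for 5 of the 10 genes, namely Sparc, Tnc, Postn, Thbs2 and Fbn1. Each window is 300 bases of the RefSeq sequence of GRCm38.p6, from 250 bases before the start of a transcript to 50 after it. A window of each of the 3 genes with a match to the letters TATAAA is shown, and the windows of Sparc and Fbn1 had no such match. Letters in capitals mark motif matches on either strand. TATAAA has the letters of a TATA box and was matched at any position. CAGAC contains the core of the SMAD binding element, and GGGCGG is the GC box of Sp1 factors. The Tnc window lies on the minus strand at chr4:64046966-64047265, that of Thbs2 on the minus strand at chr17:14694213-14694512, and that of Postn on the plus strand at chr3:54360857-54361156.
Tnc: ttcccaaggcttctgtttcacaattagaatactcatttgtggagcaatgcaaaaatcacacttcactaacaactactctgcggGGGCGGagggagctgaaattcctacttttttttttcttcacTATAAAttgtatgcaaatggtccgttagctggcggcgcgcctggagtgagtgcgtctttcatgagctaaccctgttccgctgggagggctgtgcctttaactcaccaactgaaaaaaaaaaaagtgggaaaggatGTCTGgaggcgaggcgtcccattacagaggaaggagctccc
Thbs2: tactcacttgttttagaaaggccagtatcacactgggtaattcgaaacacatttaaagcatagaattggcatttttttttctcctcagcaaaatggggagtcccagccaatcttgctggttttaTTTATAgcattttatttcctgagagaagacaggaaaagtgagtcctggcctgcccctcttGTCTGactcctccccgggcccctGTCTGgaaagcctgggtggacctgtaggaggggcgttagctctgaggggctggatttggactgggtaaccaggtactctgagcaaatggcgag
Postn: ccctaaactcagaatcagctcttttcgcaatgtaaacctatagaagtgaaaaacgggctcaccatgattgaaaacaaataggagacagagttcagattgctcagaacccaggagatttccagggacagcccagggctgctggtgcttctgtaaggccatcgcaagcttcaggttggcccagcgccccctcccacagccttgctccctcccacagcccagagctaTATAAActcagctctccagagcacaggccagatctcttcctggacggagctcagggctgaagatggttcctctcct

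The motif TATAAA began at position −26 from the start in this Postn window and at −126 in those of Tnc and Thbs2, where the match in Thbs2 was on the opposite strand. It was present in 13.6% of all 32851 windows in the RefSeq table. The motif CAGAC was found in a window of 4 of the 5 genes (Sparc, Tnc, Postn and Thbs2) and in 49.6% of all windows, and GGGCGG in 2 of the 5 (Tnc and Fbn1) and in 35.7% of all windows. No window of the 5 genes matched TGANTCA (the AP-1 motif, in 7.81% of all windows), GGAATG (the TEAD motif, in 14.7%) or the CArG box of serum response factor (in 1.63%). Tnc and Postn each have another window in the table, and a gene was counted if either window matched. The TATAAA match in the other Tnc window began at −205, and the other Postn window held none. Whether any TATAAA match acts as a TATA box was not tested. These are letter matches in a fixed window and show no binding.

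The first comparison asked whether the 10 genes differed between the irradiated and the control arrays. Fn1 was the 1 gene of the 10 that passed the test (limma with Benjamini-Hochberg adjustment over all 39302 probes, adjusted p under 0.05), and it was higher in the irradiated arrays. Of all 19698 genes, 0.264% passed the test with a higher level and 0.152% with a lower level (0.416% in all), and of all probes 0.333% passed in either direction. The difference was above 0 for 9 of the 10 genes and below 0 for Eln, against 51.9% of all genes above 0. All irradiated arrays lay above all control arrays for 3 of the 10, namely Fn1, Tnc and Lox, which was the case for 3.4% of all genes. With 75th percentile scaling and in the authors' normalized table, the groups were apart in this way for Fn1 alone, and those of Tnc and Lox overlapped. The median log2 difference was 0.43 over the 10 genes and 0.0085 over all genes.

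**Figure D1:**
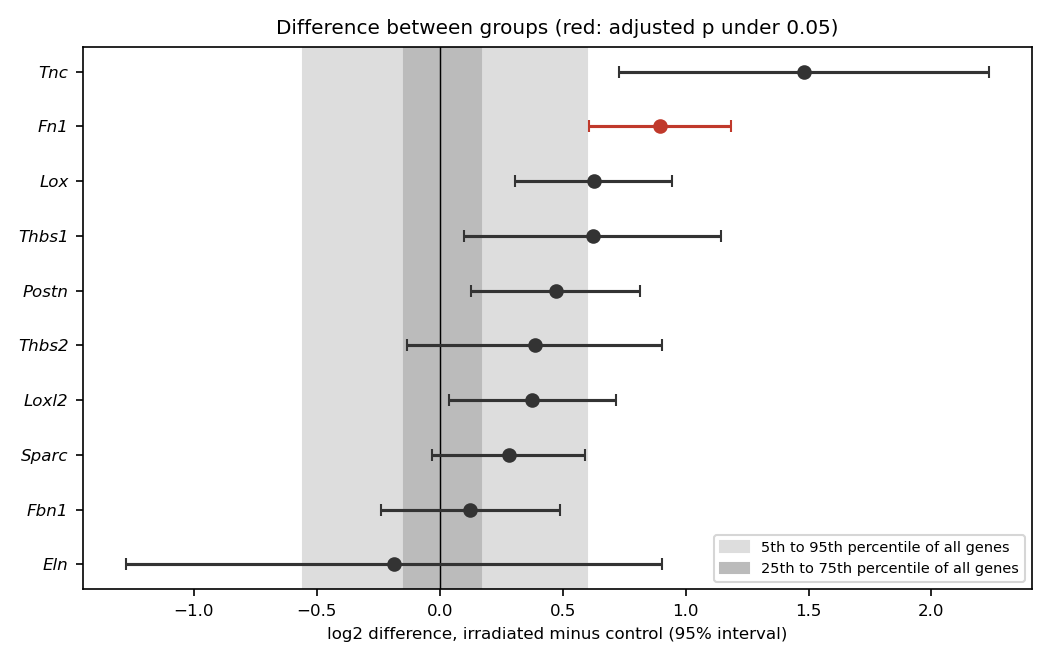
Log2 difference between irradiated and control arrays (horizontal axis) for each of the 10 genes, with 95% intervals from limma. The shaded bands hold the middle of the same difference over all 19698 genes, from −0.55 to 0.60 for the 5th to 95th percentile, and Fn1 (red, 0.90), Tnc (1.48), Lox (0.63) and Thbs1 (0.62) lie to the right of the wider band.

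An unadjusted p under 0.05 in limma was found for 6 of the 10 genes, all with a higher level in the irradiated arrays, against 7.37% of all genes that were higher and 4.98% that were lower at this p. Of these, 5 (Tnc, Postn, Thbs1, Lox and Loxl2) did not pass after adjustment. Only Tnc reached a 2-fold higher level, as did 1.7% of all genes. The arrays measured RNA of whole tissue, in which more cells of a type that makes a matrix protein and more RNA per cell cannot be told apart.

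Fibronectin, whose gene spans chr1:71585473-71653280 in GRCm38.p6, was measured by 1 probe. Its log2 intensity was 15.47, 15.33, 15.40 and 15.23 on control arrays 1 to 4. On irradiated arrays 1 to 5 it was 15.93, 16.16, 16.15, 16.59 and 16.44. Every irradiated array lay above every control array, with a gap between the groups wider than the whole range of the control arrays. Fn1 was 1.86-fold higher (95% interval 1.52 to 2.28), a log2 difference of 0.90 with a standard error of 0.13, from a control mean of 15.36 ± 0.11 (SD, n = 4) to 16.25 ± 0.26 (SD, n = 5, limma adjusted p = 0.0326). The exact two-sided permutation p was 0.00794, which is the smallest that 4 arrays against 5 can give. Fn1 ranked 29th of all genes by p, and 2.24% of all genes had a log2 difference at least as large.

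The Fn1 difference lay between 0.63 and 0.99 on the log2 scale in every setting tried. Its adjusted p ranged from 0.00147 to 0.304 over these 22 settings, and the call was lost in 10 of them. With any of the 4 control arrays or any of irradiated arrays 2 to 5 left out, the call was lost (adjusted p up to 0.116), and without irradiated array 1 it was kept (adjusted p = 0.0117). The 3 genes with the most similar values over the 9 arrays, by the root mean square difference of log2 values relative to the control mean among 18363 genes, were Tnfaip8l1 (0.140), Lgals3 (0.145) and Clca3a1 (0.154). Lgals3 encodes galectin-3, a lectin abundant in macrophages. The most similar of the other 9 genes was Lox, with a root mean square difference of 0.271, which placed it 54th.

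Macrophages also make fibronectin, so the level of their markers was measured beside it. Of 7 macrophage markers found among 8 listed (Cd68 was not matched), 6 had a positive and 1 (Marco, −0.63) a negative difference, with a median of 0.60, and none passed the test. All irradiated arrays lay above all control arrays for 2 of them, Adgre1 (log2 difference 0.72, limma adjusted p = 0.138) and Mrc1 (0.60, adjusted p = 0.0652). This was the case for 3.4% of all genes. The mean of the list relative to the control mean was 0.26 to 0.44 on the irradiated arrays and −0.24 to 0.43 on the control arrays, so that control array 1 reached the level of the irradiated arrays. The 8 markers of fibroblasts and myofibroblasts had means of −0.21 to 0.35 on the irradiated and −0.26 to 0.22 on the control arrays, and none passed the test. Of these 8, 5 had a positive and 3 a negative difference, from −0.61 (Acta2) to 0.69 (Col3a1). The part of these cells in the Fn1 difference was not tested.

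**Figure D2:**
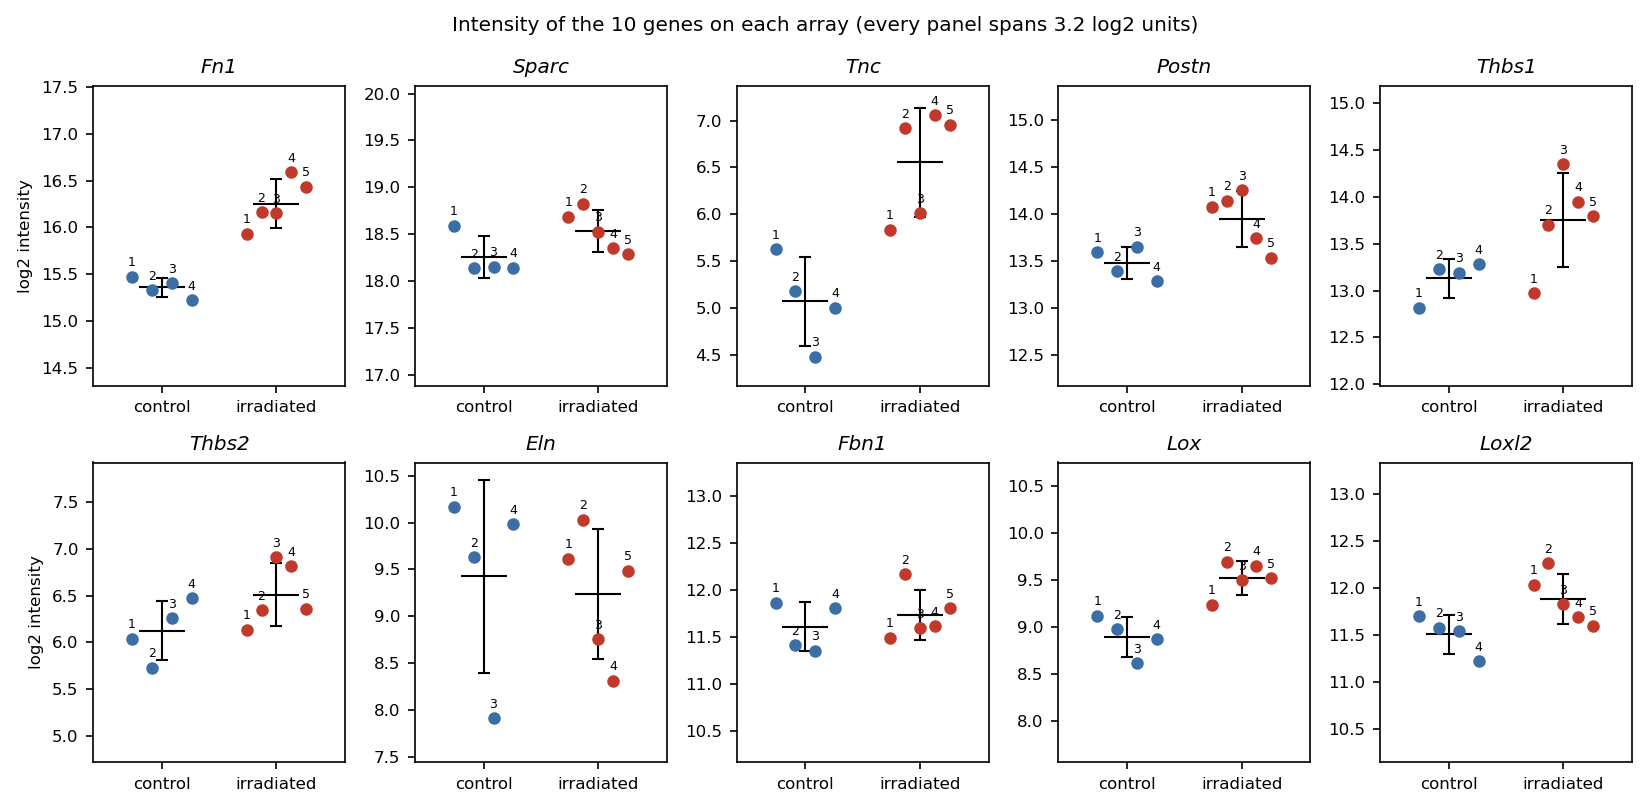
Log2 intensity (vertical axis) of the 10 genes on each of the 4 control (blue) and 5 irradiated (red) arrays, numbered as in the labels, with the mean and SD of each group as black bars. Every panel spans the same range of log2 units, and the groups are apart in Fn1, Tnc and Lox and overlap in the other 7 genes.

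Of the 10 genes, tenascin-C had the largest log2 difference. Tnc (chr4:63959785-64047015) encodes a glycoprotein that is scarce in most adult tissues and induced during repair, and had log2 intensities of 5.63, 5.18, 4.48 and 5.00 on control arrays 1 to 4. On irradiated arrays 1 to 5 the values were 5.84, 6.92, 6.01, 7.06 and 6.95. All irradiated arrays were above all control arrays, though irradiated arrays 1 and 3 lay near control array 1. The means were 5.07 ± 0.47 (SD, n = 4) and 6.56 ± 0.58 (SD, n = 5), a 2.79-fold higher level (95% interval 1.66 to 4.70) that did not pass the test (limma log2 difference 1.48, standard error 0.34, adjusted p = 0.122, exact permutation p = 0.0159).

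A second Tnc probe, measuring the same gene at another position, gave 5.42, 4.52, 4.39 and 5.15 on the control arrays. On the irradiated arrays it gave 5.79, 6.15, 5.63, 6.30 and 6.83. These groups did not overlap either, and the log2 difference was 1.27 with a standard error of 0.31 (limma adjusted p = 0.152). The intensity of both probes was low although well above background on all 9 arrays, and the size of the difference of the brighter probe varied with the setting, from 0.64 with normexp (offset 50) and 0.82 in the authors' normalized table to 1.67 without control array 1. Without irradiated array 1 the difference was 1.66 and Tnc passed the test (limma adjusted p = 0.048).

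Periostin, a fasciclin-domain protein that binds collagen and tenascin-C, had log2 intensities of 13.59, 13.39, 13.65 and 13.28 on the control arrays. Its values on irradiated arrays 1 to 5 were 14.08, 14.14, 14.25, 13.74 and 13.53. Irradiated arrays 1 to 4 lay above all control arrays and irradiated array 5 lay among them. The log2 difference was 0.47 with a standard error of 0.15 (1.39-fold, 95% interval 1.09 to 1.76), which did not pass the test (limma adjusted p = 0.294, exact permutation p = 0.0476).

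Thrombospondin 1 (Thbs1, chr2:118111876-118127133), which activates latent TGF-β and inhibits angiogenesis, had log2 intensities of 12.82, 13.23, 13.19 and 13.28 on the control arrays. Irradiated arrays 1 to 5 had values of 12.97, 13.70, 14.35, 13.95 and 13.79. Irradiated array 1 was below 3 of the 4 control arrays, and the other 4 irradiated arrays were above all of them. The log2 difference of Thbs1 was 0.62 with a standard error of 0.23 (1.54-fold, 95% interval 1.07 to 2.21, limma adjusted p = 0.38, exact permutation p = 0.0556). Without irradiated array 1 it was 0.82 and passed the test (limma adjusted p = 0.049).

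Platelet markers were measured beside Thbs1. All 6 platelet and megakaryocyte markers had a negative difference and none passed the test, and their mean was −1.04 to −0.20 on the irradiated arrays against −0.12 to 0.26 on the control arrays. All irradiated arrays lay below all control arrays for 2 of the 6, Ppbp and Gp9, as for 1.76% of all genes. Irradiated array 3, with the highest Thbs1 value, had the highest platelet mean of the irradiated arrays (−0.20). Irradiated array 4, with a Thbs1 value of 13.95, had the lowest platelet mean (−1.04). Irradiated array 1, with the lowest Thbs1 value of the irradiated arrays (12.97), had a platelet mean of −0.45. The part of platelets in the Thbs1 values was not tested.

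Thrombospondin 2, a related inhibitor of angiogenesis, had log2 intensities of 6.04, 5.73, 6.26 and 6.47 on the control arrays. The 5 irradiated arrays had 6.13, 6.34, 6.91, 6.81 and 6.36. The groups overlapped, with only irradiated arrays 3 and 4 above all control arrays. The log2 difference of 0.39 with a standard error of 0.23 did not pass the test (95% interval −0.13 to 0.90, limma adjusted p = 0.665). It was 0.26 without control array 2, 0.18 with normexp, 0.17 in the authors' table and 0.16 with 75th percentile scaling.

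SPARC, a collagen-binding glycoprotein also called osteonectin, had log2 intensities of 18.59, 18.14, 18.15 and 18.14 on the control arrays. Values of the irradiated arrays were 18.69, 18.83, 18.53, 18.35 and 18.29. Control array 1 stood above the other 3 control arrays and above irradiated arrays 3 to 5, so the groups overlapped. The log2 difference was 0.28 with a standard error of 0.14 (95% interval −0.03 to 0.59, limma adjusted p = 0.566), and a second Sparc probe gave 0.40 with a standard error of 0.20 (adjusted p = 0.561). The spot of the brighter probe carried a mark for an outlying local background on 5 arrays, and that of the second probe on 2. With such spots left out, the log2 difference of the brighter probe was 0.01 with a standard error of 0.28, from fewer arrays.

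Elastin (Eln, chr5:134702595-134747368), the core protein of elastic fibers, varied most among arrays of the same group. Its log2 intensity was 10.17, 9.63, 7.91 and 9.98 on control arrays 1 to 4. On irradiated arrays 1 to 5 it was 9.61, 10.03, 8.76, 8.31 and 9.49. The lowest value of all belonged to a control array, and both groups covered nearly the same range. The means were 9.42 ± 1.03 (SD, n = 4) and 9.24 ± 0.69 (SD, n = 5), a log2 difference of −0.19 with a standard error of 0.49 that did not pass the test (limma adjusted p = 0.966, exact permutation p = 0.778). The 95% interval ran from −1.28 to 0.90, and the sign turned to positive when control array 1, control array 4 or irradiated array 4 was left out (0.063, 0.0010 and 0.046).

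Fibrillin-1, the main protein of microfibrils, had log2 intensities of 11.86, 11.41, 11.35 and 11.81 on the control arrays. Irradiated arrays 1 to 5 gave 11.49, 12.17, 11.59, 11.61 and 11.80. The groups overlapped and only irradiated array 2 lay above all control arrays. The log2 difference was 0.12 with a standard error of 0.16 (95% interval −0.24 to 0.49, limma adjusted p = 0.892). With each array left out it ran from 0.016 without irradiated array 2 to 0.21 without control array 1, and it was 0.039 without control array 3 and 0.059 without control array 2.

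Markers of smooth muscle, a source of elastin in airways and vessels, had a negative difference for all 6 genes, and none passed the test. Their mean was −0.93 to −0.15 on the irradiated arrays and −0.20 to 0.27 on the control arrays. All irradiated arrays lay below all control arrays for 1 of the 6, Synpo2, as for 1.76% of all genes. Control array 3, which had the lowest Eln value, had a mean of 4.61 for 8 skeletal muscle markers, while the other 8 arrays had −2.11 to −0.99. These means are relative to the control mean, which includes control array 3, so its high values lower the means of the other 8 arrays. Only 3 of the skeletal muscle markers had a signal well above background on all 9 arrays. Irradiated array 1 had a mean of −5.64 for 8 cardiac muscle markers, against −0.52 to 0.54 on the other 8 arrays. With both of these arrays left out, the Eln difference was −0.78 and did not pass the test. All 7 lung epithelial and 5 endothelial markers were detected well above background on each of the 9 arrays. The part of these tissues in the values of Eln was not tested.

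Lysyl oxidase had log2 intensities of 9.12, 8.98, 8.61 and 8.87 on the control arrays. On the irradiated arrays the values were 9.24, 9.70, 9.50, 9.66 and 9.52. All irradiated arrays lay above all control arrays, and irradiated array 1 was the nearest to them. The log2 difference of Lox was 0.63 with a standard error of 0.14 (1.54-fold, 95% interval 1.24 to 1.92), which did not pass the test (limma adjusted p = 0.122, exact permutation p = 0.0159). A second Lox probe gave a log2 difference of 0.72 with a standard error of 0.25, and its groups overlapped (limma adjusted p = 0.324).

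Lysyl oxidase-like 2, which cross-links collagen IV in basement membranes, had log2 intensities of 11.70, 11.58, 11.54 and 11.22 on the control arrays. On the irradiated arrays the values were 12.04, 12.26, 11.83, 11.69 and 11.60. Irradiated arrays 1 to 3 were above all control arrays and irradiated arrays 4 and 5 were not. The log2 difference of 0.38 with a standard error of 0.15 did not pass the test (95% interval 0.04 to 0.72, limma adjusted p = 0.426). The other 2 probes of Loxl2 gave smaller values of 0.07 and 0.10 (standard errors 0.25 and 0.34, limma adjusted p = 0.98 and 0.979). Their 95% intervals, −0.49 to 0.63 and −0.67 to 0.87, both hold 0.38, and a difference between probes was not tested. The mean over the probes of this gene differed by 0.18.

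The 10 genes did not follow 1 order over the irradiated arrays. Irradiated array 1 had the lowest value of the irradiated arrays for 6 genes (Fn1, Tnc, Thbs1, Thbs2, Fbn1 and Lox). Irradiated array 2 had the highest value for 5 genes (Sparc, Eln, Fbn1, Lox and Loxl2), irradiated array 3 for Postn, Thbs1 and Thbs2, and irradiated array 4 for Fn1 and Tnc. Of the control arrays, array 1 was highest for 7 genes (Fn1, Sparc, Tnc, Eln, Fbn1, Lox and Loxl2). This array also had a mean of 1.49 for 6 cartilage markers, against −0.71 to −0.38 on the other 3 control arrays and −0.57 to −0.22 on those of irradiated lung. The control mean to which these are relative includes control array 1, so its high values lower the means of the other arrays. Only 2 of the 6 cartilage markers had a signal well above background on all 9 arrays. The part of cartilage in the values of control array 1 was not tested.

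The arrays could also be compared in pairs. Arrays were paired where each was the other's nearest in vertical position on the scan image, which gave 4 pairs of a control and an irradiated array. Local background was not used to form the pairs and was nearly the same within each. The vertical gap within a pair was 1.794 to 3.793. Irradiated array 1 lay 4.284 from its nearest array, which was nearer to another, so it had no partner and is in no pair count. The labels name no slide or scan, so the pairs rest on these positions alone. In all 4 pairs the irradiated array was higher for 7 of the 10 genes (Fn1, Sparc, Tnc, Postn, Thbs1, Lox and Loxl2), as it was for 17.9% of all genes.

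Within the pairs, the log2 difference of Fn1 was 0.69, 0.82, 1.19 and 1.21. That of Tnc was 1.29, 0.83, 2.58 and 1.95, and that of Lox was 0.58, 0.52, 1.04 and 0.65. All of these were positive. Thbs1 differed by 0.88, 1.12, 0.76 and 0.51 within the pairs, and its value on irradiated array 1, below most control arrays, was not part of any pair. For Eln the within-pair differences were −0.14, −0.88, 0.40 and −0.50, with no common sign, while the pair means were 10.10, 9.19, 8.11 and 9.74 and so spread over a wider range than any within-pair difference. With the pair as a block over 8 arrays, 3 of the 10 genes passed the test, among 3.82% of all genes. The limma adjusted p was 0.031 for Fn1, 0.0372 for Thbs1 and 0.0473 for Lox. Irradiated array 1 was not in this fit. The log2 differences of these 3 genes (0.98, 0.82 and 0.70) were the same with only that array left out. Leaving it out without pairing also gave 3 genes past the test (Fn1, Tnc and Thbs1), among 1.65% of all genes. The part of the pairing in these calls was not tested.

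**Figure D3:**
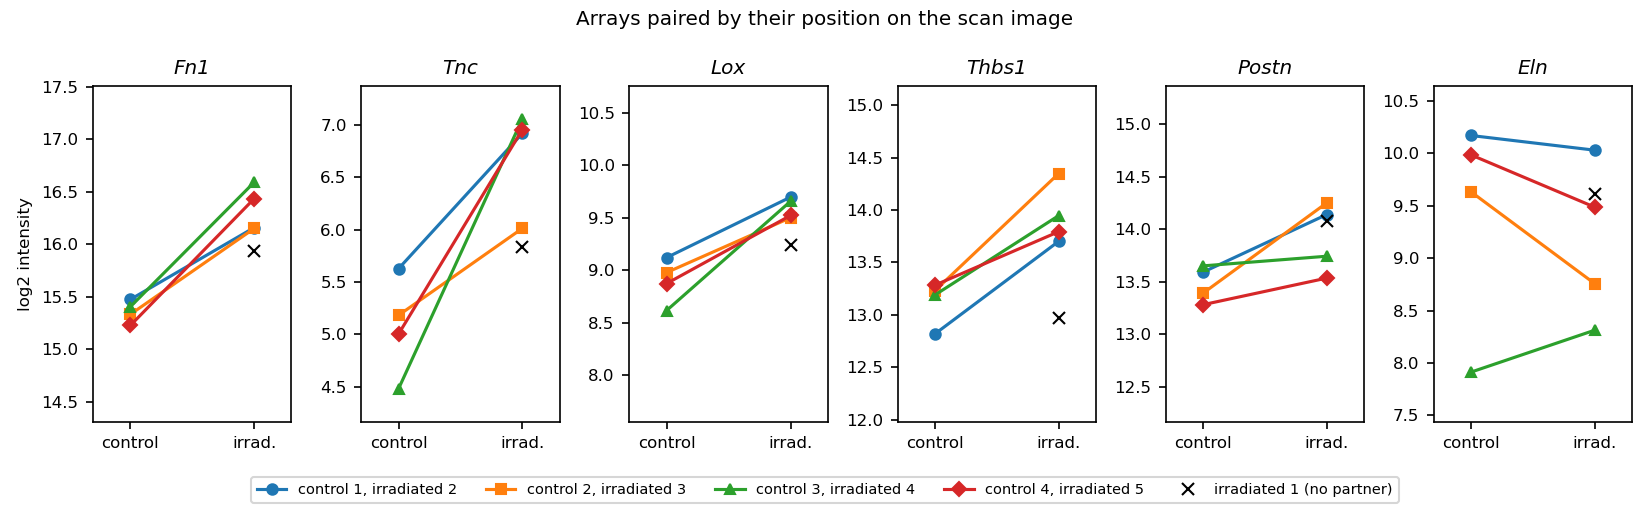
Log2 intensity (vertical axis) of 6 of the genes on control and irradiated arrays, with lines joining the 4 pairs of arrays that lie next to each other on the scan image and a cross for irradiated array 1, which has no partner. Every line rises for Fn1, Tnc, Lox, Thbs1 and Postn, and for Eln the lines have no common direction and the pair means run from 8.11 to 10.10.

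The second comparison covered 53 other genes of the same families and of their receptors, all of which were measured. One of them, Spock2, passed the test with a higher level and none passed with a lower level, beside 0.264% and 0.152% of all genes. The difference was positive for 33 and negative for 20, with a median of 0.12. All irradiated arrays lay above all control arrays for 7 of the 53 (Itgb1, Tgm2, Efemp2, Mfap4, Ccn4, Sparcl1 and Spock2), against 3.4% of all genes, and below them for Itga4, against 1.76%.

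Spock2 encodes testican-2, a proteoglycan of the SPARC family. Its log2 intensity was 13.10, 12.92, 13.24 and 13.15 on the control arrays and 14.20, 13.99, 14.02, 13.81 and 13.53 on the irradiated arrays. All irradiated arrays lay above all control arrays, and irradiated array 5 lay nearest to them. The level was 1.75-fold higher (limma log2 difference 0.81, standard error 0.13, adjusted p = 0.044). With 1 array left out, Spock2 passed the test only without irradiated array 1 or irradiated array 5, and not without any of the other 7 arrays. With the scan pair as a block its log2 difference was 0.74 and did not pass (limma adjusted p = 0.0561), and with the pair as a random block it was 0.77 and passed (adjusted p = 0.00458).

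Of the 12 fibronectin receptors and assembly genes, 9 had a positive and 3 a negative difference, with a median of 0.23. The 2 brightest were Tgm2, the transglutaminase that cross-links fibronectin (log2 difference 0.36, standard error 0.08, limma adjusted p = 0.112, groups apart), and Itgb5, an integrin subunit (0.17, standard error 0.11, adjusted p = 0.679). The 17 elastic fiber and microfibril genes had 11 positive and 6 negative differences and a median of 0.11. Mfap4, a microfibril-associated glycoprotein, differed by 0.95 with a standard error of 0.20 (limma adjusted p = 0.0999, groups apart), while Ltbp4, which binds latent TGF-β to microfibrils, differed by −0.25 with a standard error of 0.11 (adjusted p = 0.46).

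The 19 other matricellular genes had 9 positive and 10 negative differences and a median of −0.01. Of the 19, 4 (Thbs4, Tnr, Spock1 and Spock3) lacked a signal well above background on 1 or more arrays (Spock3 on all 9), and all 4 are among the negative differences. The 2 brightest were Sparcl1, the closest relative of Sparc (log2 difference 0.31, standard error 0.08, limma adjusted p = 0.157, groups apart), and Ccn2, the connective tissue growth factor (0.39, standard error 0.21, adjusted p = 0.596). The 5 thrombospondin receptors and inhibitors had 4 positive and 1 negative difference, with a median of 0.20. Cd47, a receptor of Thbs1, differed by 0.07 (limma adjusted p = 0.937), and Calr, calreticulin, by 0.30 (adjusted p = 0.5).

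One related gene reached a 2-fold difference. Spp1, which encodes osteopontin and is named here after its values were seen, had log2 intensities of 11.19, 10.17, 10.22 and 11.33 on the control arrays and 10.90, 11.50, 13.89, 14.55 and 14.08 on the irradiated arrays. Irradiated arrays 3 to 5 lay far above all control arrays, and irradiated array 1 lay among them. The log2 difference was 2.26 with a standard error of 0.74 and did not pass the test (limma adjusted p = 0.298).

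**Figure D4:**
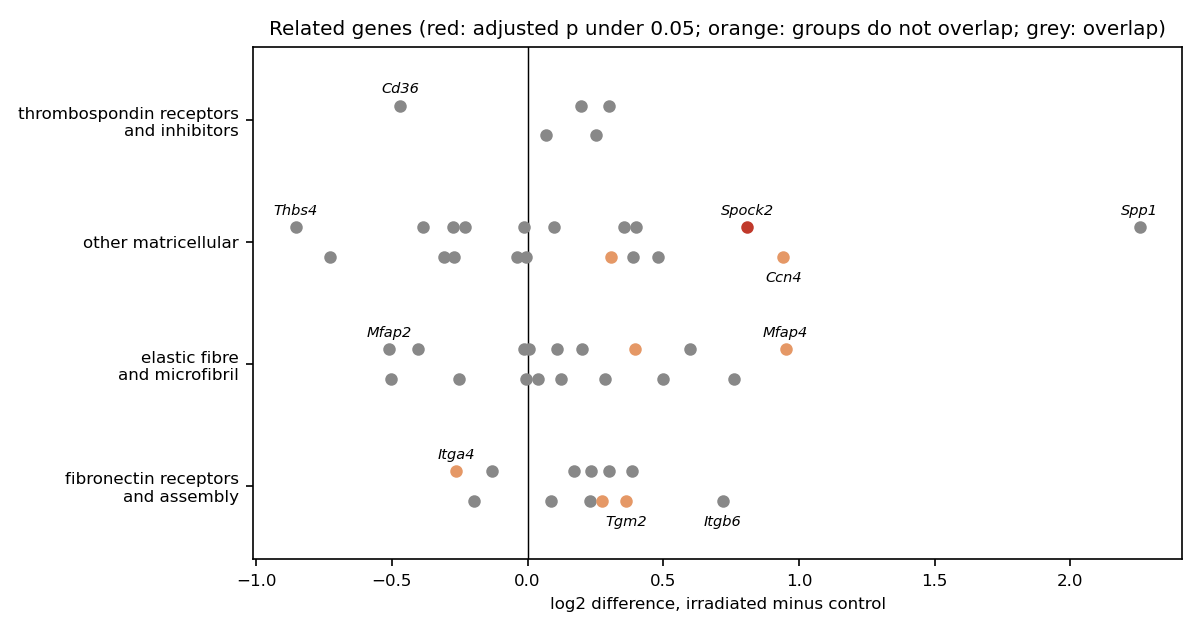
Log2 difference between irradiated and control arrays (horizontal axis) of 53 related genes, by list. Spock2 (red, 0.81) is the gene that passed the test, the genes in orange are those whose groups did not overlap, and Spp1 (2.26) has the largest difference.

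**Figure D5:**
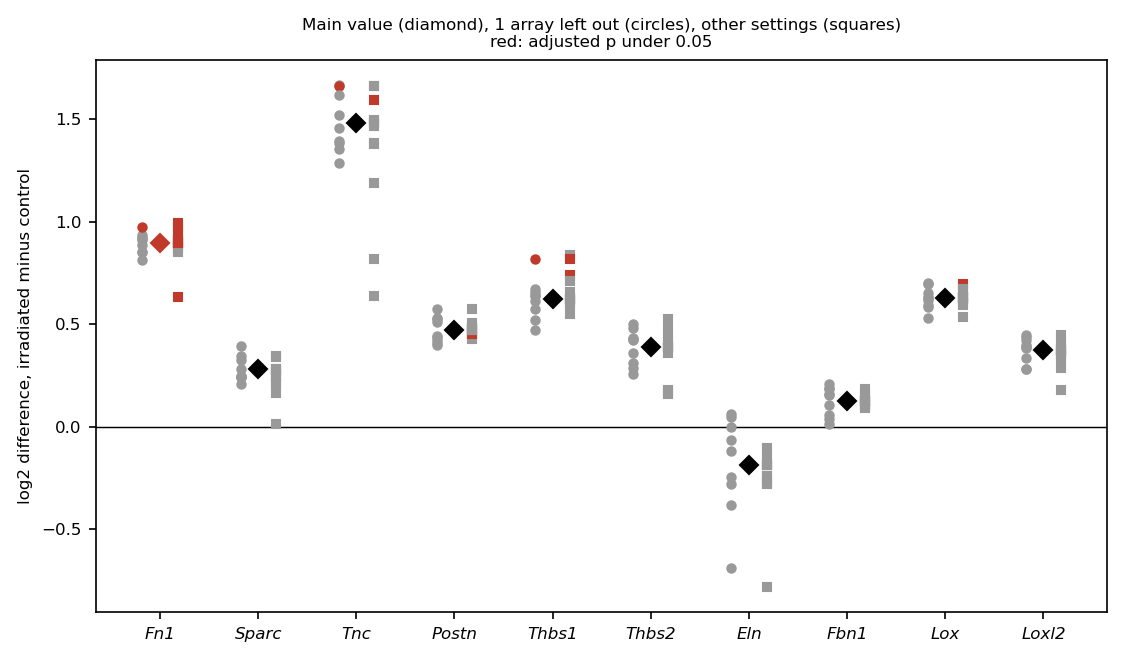
Log2 difference (vertical axis) of each of the 10 genes in the main analysis (diamonds), with 1 array left out (circles) and under the other settings (squares), in red where the adjusted p was under 0.05. Fn1 lies between 0.63 and 0.99 throughout, and Eln is the gene whose values lie on both sides of 0.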

How the data were processed

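RNA of mouse lung was measured on 9 one-color Agilent arrays, 4 control and 5 irradiated, each from pooled RNA. The authors deposited Feature Extraction output with the processed signal, an intensity corrected for background, and a table of quantile-normalized intensity values, which served as an alternative. The files' genome build is not given in the sources used here.

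Outlier spots, as marked by the scanner software, and control spots were removed. A probe was kept if its median signal exceeded the local background by a factor of 1.4 on 4 or more arrays (39302 of 39429). After log2 transformation and quantile normalization, spots of a probe were averaged. Of the probes, 26055 (66.1%) were named through RefSeq accessions in a GRCm38.p6 table. The share of spots well above background was 72.8% to 89.1% per array, with no saturation. Precision is limited by the number of arrays.

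Groups were compared with limma 3.58.1 (R 4.3.3), in which the variance followed the intensity and p-values were adjusted by Benjamini-Hochberg over the kept probes (adjusted p under 0.05), and for single genes with an exact two-sided permutation test. The fit was tested on simulated data. The genes and lists were chosen with earlier results of these data known. The naming rule covered the 10 genes, related genes past the threshold, the 2 brightest of each related list and the 3 nearest genes of a gene past the threshold. Other measured genes, among them Spp1 and single markers, are named for their values, such as groups apart or a call in an alternative setting. Marker lists covered fibroblasts, mesothelium, platelets, macrophages, cartilage, smooth, cardiac and skeletal muscle, epithelium and endothelium. Mesothelial markers, not given with the results, had means of −0.61 to 0.63 on the irradiated and −0.65 to 0.86 on the control arrays, with none past the test. Alternatives were normexp background correction, 75th percentile scaling, the filter on all or no arrays, the authors' table, arrays left out, blocks for replicate number and scan pair, no intensity trend, a threshold of 0.01, array weights and the mean of a gene's probes. Leaving out spots marked for an outlying local background was added after seeing the data.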

Additional observations from a re-analysis of the deposited data

Results flagged for a closer look

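One of 20 sets of values (10 genes in 2 groups) had 1 array that stood apart. Sparc on control array 1 had a log2 intensity of 18.59, while the other 3 control arrays had 18.14 to 18.15. About that many such sets are flagged by chance among 20. Without control array 1 the log2 difference of the brighter Sparc probe was 0.39.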

How the results depend on the processing

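Of 220 values of the 10 genes over 22 alternative settings, 199 kept their direction and their side of the threshold, 10 (all Fn1) lost the threshold, 8 crossed it and 3 changed sign. The changes of sign were all in Eln, which was 0.063 without control array 1, 0.0010 without control array 4 and 0.046 without irradiated array 4, in a range of −0.69 to 0.063 with each array left out. The number of the 10 genes past the threshold, 1 in the main analysis, was 0 to 3 with each array left out in turn. It was 3 (Fn1, Tnc and Thbs1) without irradiated array 1, where 1.65% of all genes passed, against 0.416% in the main analysis. It was 0 in each of the other 8 cases, where 0.0254% to 0.127% of all genes passed. It was 0 without an intensity trend (Fn1 adjusted p = 0.0676) and 0 at an adjusted p under 0.01, with 6 genes at an unadjusted p under 0.05 in both. It was 3 with the scan pair as a block, a fit that also lacks irradiated array 1, where 3.82% of all genes passed. It was 5 (Fn1, Tnc, Postn, Thbs1 and Lox) with the pair as a random block, where 9.45% of all genes passed. The number of related genes, also 1, was 0 under 75th percentile scaling, in the authors' table, with control array 3 and irradiated array 1 both left out, at an adjusted p under 0.01 and without an intensity trend. It was 0 to 2 with each array left out, with 2 (Mfap4 and Spock2) without irradiated array 1, where 1.65% of all genes passed. With the scan pair as a block it was 4 (Itgb6, Efemp2 and Lrp1, and Mfap2, whose main log2 difference was −0.51, but not Spock2), beside 3.82% of all genes. With the pair as a random block it was 16, beside 9.45% of all genes. The cause of these changes was not tested.

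The replicate numbers did not pair the arrays, as same-numbered arrays had correlations of deviations between −0.17 and 0.062. With the replicate block, in which irradiated array 5 has no control of the same number, 0 of the 10 genes and 0 of the related genes passed the test (limma), 7 and 18 had an unadjusted p under 0.05, and Fn1 differed by 0.85 (adjusted p = 0.304).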

Other observations

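Irradiated arrays 4 and 5 held the lowest 2 of the 5 irradiated values for Sparc, Postn and Loxl2, and the highest 2 for Fn1 and Tnc. Among 19676 genes measured on all irradiated arrays, 15.9% had the first pattern and 10.5% the second. Of the related genes, 8 had the first pattern (Ccn2, Cd36, Spock2, Mfap5, Mfap2, Ccn4, Itga5 and Loxl4) and 5 the second (Mfap4, Tgm2, Lrp1, Itgb6 and Spp1). This pattern was noticed after the values were seen and was not tested, and the labels do not say how these arrays differ.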
